A study of Homo sapiens with 6 samples.

Results

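The genes described here are 10 noncoding host genes of small nucleolar RNAs (snoRNAs): SNHG1, SNHG3, SNHG5, SNHG6, SNHG7, SNHG8, SNHG12, SNHG15, GAS5 and ZFAS1. They were chosen by name. All 10 were found by symbol among the 57773 genes of the count table, and all 10 were among the 16290 genes that passed the filter on low counts. RNA was sequenced from SW872, an established human liposarcoma cell line, in an Apatinib group of 3 replicates that received 18 μM of the drug for 24 h and a control group of 3 replicates without it. Apatinib is a small-molecule inhibitor of the VEGFR2 receptor tyrosine kinase. Both groups grew in the same medium with serum, both come from a single cell line, and the methods call the 3 samples of each condition biological replicates without saying how the cultures were separated.

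A snoRNA host gene is transcribed and spliced, and its snoRNAs are cut out of the introns. Those snoRNAs guide the methylation (box C/D class) or pseudouridylation (box H/ACA class) of ribosomal RNA. In many noncoding hosts the spliced exons keep only short open reading frames with early stop codons, and the RNA is a known substrate of nonsense-mediated decay (NMD), which depends on translation. Many hosts also start, like the mRNAs of ribosomal proteins, with a 5′ terminal oligopyrimidine (TOP) run of C and T. TOP mRNAs are known for translation under the control of mTOR. GAS5 (growth arrest-specific 5) was named for its accumulation in growth-arrested cells, and its RNA can bind the glucocorticoid receptor.

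The start sites are shown because the TOP run is the sequence feature that links these genes with the ribosomal protein mRNAs. RefSeq promoter windows (GRCh38.p14) were matched for 8 of the 10 genes, while SNHG6 and SNHG15 had no entry. In the lines that follow, capitals mark the run of C and T that includes the annotated first base. The windows are GAS5 at chr1:173869016-173869075 (minus strand), ZFAS1 at chr20:49278612-49278671 (plus), SNHG5 at chr6:85678704-85678763 (minus), SNHG8 at chr4:118278732-118278791 (plus), SNHG12 at chr1:28581844-28581903 (minus), and, for a TOP mRNA, the elongation factor gene EEF2 at chr19:3985444-3985493 (minus).
GAS5: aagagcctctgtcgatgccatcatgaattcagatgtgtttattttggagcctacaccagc
ZFAS1: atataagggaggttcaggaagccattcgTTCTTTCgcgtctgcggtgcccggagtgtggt
SNHG5: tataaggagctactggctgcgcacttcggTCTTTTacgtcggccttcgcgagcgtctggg
SNHG8: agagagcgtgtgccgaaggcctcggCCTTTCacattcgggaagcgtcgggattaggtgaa
SNHG12: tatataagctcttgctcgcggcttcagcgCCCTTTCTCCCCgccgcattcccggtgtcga
EEF2: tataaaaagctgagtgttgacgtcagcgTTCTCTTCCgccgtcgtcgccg
The run was 12 bases long in SNHG12, 7 in ZFAS1, 6 in each of SNHG5, SNHG7 and SNHG8, and 5 in SNHG1, against 9 in EEF2. SNHG3 and GAS5 had none at the RefSeq start. A run of at least 5 bases was thus present in 6 of 8 host genes (75%), in 63 of 92 start windows of TOP mRNAs (68.5%), in 5 of 18 other noncoding hosts (27.8%) and in 3372 of all 35116 windows (9.6%).

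The RefSeq start of GAS5 is not the start of all its annotated transcripts. In GENCODE release 29, 7 of 29 GAS5 transcripts began with at least 5 bases of C and T, counted from the first base onward, which is stricter than in the RefSeq windows, where a run may begin before that base. By this count it was 7 of 17 transcripts in SNHG12, 3 of 10 in ZFAS1, 3 of 23 in SNHG5, 3 of 25 in SNHG1, 1 of 5 in SNHG8 and 1 of 3 in SNHG3, but 0 of 4 in SNHG7 and 0 of 10 in SNHG15. SNHG6 was left out of this count. The first 30 bases of 1 GAS5 transcript are printed to show such a start, with the run in capitals.
GAS5-210: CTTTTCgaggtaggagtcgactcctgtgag
The 300-base promoter windows were also searched on both strands for CACGTG, the core of the site read by MYC and its relatives, and for TGATGNAA, the site of ATF4 with C/EBP proteins, where N is any base. CACGTG was found in 1 of 8 host genes (SNHG7; 12.5%) and in 7.26% of all windows, and TGATGNAA in 0 of 8 and in 3.62%. These matches describe letters only.

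The total counts were between 17043314 and 22067558 per replicate, so that a host gene had between 146 counts (SNHG12 in Apatinib replicate 1) and 3276 counts (GAS5 in Apatinib replicate 2). Control replicates 1 and 2 were far closer to each other (mean chi-square per gene 2.27) than any other pair of one group (18.2 to 44.5). The sources do not say whether they come from separate cultures, and the main fit treated them as separate replicates. The mesenchymal markers were expressed, with FN1 between 3213 and 4826 CPM (counts scaled to the library total). Of 7 adipocyte markers 3, FABP4, ADIPOQ and CEBPA, were at 0 in every replicate, as was the blood marker PTPRC. Other adipocyte markers were expressed, and 3 passed the filter on low counts, among them LPL and PPARG. PPARG was not called. The summed level of 6 epithelial markers was 125 to 158 CPM in the Apatinib group and 93.8 to 109 CPM in the control group, and 2 of the 3 tested, KRT8 and ESRP1, were called higher by edgeR. The sum of 7 mesenchymal markers was 5164 to 6095 against 4308 to 4456 CPM, with COL3A1 called by edgeR, and that of 7 adipocyte markers was 65.8 to 90.6 against 61.5 to 63.6 CPM, with LPL called. Without control replicate 1 none of these 4 calls was kept. KRT8 was also lost without Apatinib replicate 1 or control replicate 2, LPL without control replicate 2, and COL3A1 and LPL with limma on FPKM, while ESRP1 was kept only without Apatinib replicate 2 among the fits without 1 replicate and had no adjusted p in DESeq2. Of 5 blood markers 1 was tested and none was called, with a sum of 2.75 to 4.07 against 4.68 to 5.50 CPM. The part of these shifts in the results for the host genes was not tested.

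Levels were compared between genes per length, as FPKM (fragments per kilobase, scaled to the fragments mapped). In the control group GAS5 was highest at 85.5 ± 12.9 FPKM (mean ± SD, n = 3), followed by SNHG1 at 53.5 ± 8.64, SNHG5 at 46.5 ± 1.08, ZFAS1 at 44.7 ± 2.05 and SNHG6 at 42.1 ± 2.27. A lower set followed with SNHG7 at 14.9 ± 0.94, SNHG8 at 13.2 ± 1.29 and SNHG3 at 13.2 ± 2.53. SNHG15 at 8.25 ± 0.376 and SNHG12 at 7.42 ± 0.755 were lowest. The ranges of the control replicates did not overlap between GAS5 and SNHG1, between SNHG6 and SNHG7, and between SNHG3 and SNHG15, while all other neighbours in this order overlapped. In the Apatinib group GAS5 remained first at 148 ± 46.8 FPKM and ZFAS1 stood second at 73.2 ± 21.8, with SNHG1 the fifth at 51.8 ± 24.2.

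**Figure D1:**
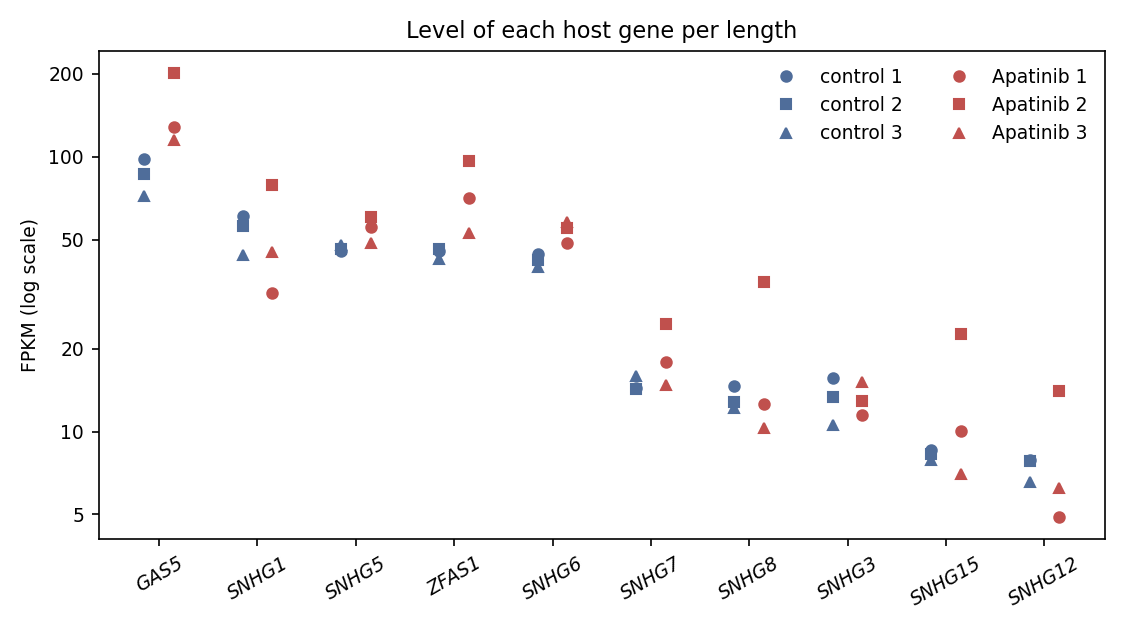
FPKM on a log scale for the 10 host genes, 1 point per replicate (circle, square and triangle for replicates 1, 2 and 3; blue control, red Apatinib), ordered by the control mean. GAS5 is highest in both groups, and the red squares of Apatinib replicate 2 stand highest for every gene except SNHG6 and SNHG3.

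Whether Apatinib changed these genes was tested for each with edgeR's quasi-likelihood test, fitted over the whole table. A gene was called differentially expressed (DEG) at a false discovery rate (FDR, Benjamini-Hochberg over all genes tested) under 0.05 with a log2 fold change above 0.5 in size. Of the 10 host genes 1 was called by edgeR, GAS5, which was higher with Apatinib. Of all genes tested, 11.5% were called, 5.97% higher and 5.48% lower, so 1 of 10 is near the share of all genes. The fitted change was above 0 for 8 of the 10 and below 0 for SNHG1 and SNHG3, with a median log2 fold change of 0.35 beside 0.0028 over all genes. In 4 host genes, GAS5, ZFAS1, SNHG5 and SNHG6, every Apatinib replicate was above every control replicate, which held for 17.5% of all genes. In bulk RNA a change in the share of cells that express a gene and a change in its RNA per cell cannot be told apart.

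GAS5, the host of several box C/D snoRNAs, had 121, 185 and 114 CPM in the treated replicates (numbers 1, 2 and 3 in turn, the order used for every gene here). The controls had 99.2, 91.0 and 78.0 CPM. The groups did not overlap, and Apatinib replicate 2 was far above the other treated replicates. The log2 fold change was 0.65 ± 0.18 (SE), a 1.57-fold increase, with a 95% interval of 0.25 to 1.04 and an FDR of 0.0397. Without Apatinib replicate 2 it was 0.40 with an FDR of 0.0666, and it passed neither limit. The call was also lost without Apatinib replicate 1 or any 1 of the control replicates, with log2 fold changes of 0.56 to 0.74, and it held without Apatinib replicate 3 (0.78). Summing control replicates 1 and 2 as 1 sample lost it too, as did both limma fits on FPKM (FDR 0.0643 and 0.0657). Over 15 alternatives the change stayed above 0 and the FDR ran from 0.000291 to 0.133.

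ZFAS1, the host of 3 box C/D snoRNAs next to ZNFX1, had 84.1, 127 and 72.6 CPM with Apatinib and 64.3, 68.1 and 62.0 CPM in the control group. The groups did not overlap, but the lowest treated replicate was close to the highest control. Its log2 fold change was 0.54 ± 0.18 (95% interval 0.14 to 0.94) with an FDR of 0.0700, which did not pass the limit. DESeq2 called it (0.55, FDR 0.0265), as did edgeR without a low-count filter (0.56, FDR 0.00435) and without Apatinib replicate 3 (0.71, FDR 0.0327). It was 0.28 without Apatinib replicate 2, and the FDR ran from 0.00435 to 0.206 over the alternatives.

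SNHG5 and SNHG6 had tight replicates. SNHG5 had 45.7, 49.8 and 46.3 CPM with Apatinib and 35.7, 39.5 and 38.2 CPM in the control group. SNHG6 had 27.6, 29.9 and 31.2 CPM with Apatinib and 22.4, 24.1 and 21.7 CPM in the control group. For both, the treated replicates lay close together and above all controls. The log2 fold change was 0.32 ± 0.12 for SNHG5 (95% interval 0.06 to 0.58; FDR 0.0938) and 0.38 ± 0.13 for SNHG6 (0.10 to 0.66; FDR 0.0726), so that neither passed the FDR or the fold limit. Leaving out any 1 replicate moved these values little, to between 0.28 and 0.35 for SNHG5 and between 0.34 and 0.43 for SNHG6.

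SNHG7 had 25.2, 33.1 and 21.1 CPM with Apatinib and 20.6, 21.5 and 23.8 CPM in the control group. The groups overlapped, since Apatinib replicate 3 was below control replicates 2 and 3. The log2 fold change was 0.27, with a 95% interval of -0.10 to 0.64 (FDR 0.311). It was 0.08 without Apatinib replicate 2 and 0.41 without Apatinib replicate 3.

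In SNHG8, SNHG15 and SNHG12, 1 treated replicate stood alone. SNHG8, the host of an H/ACA snoRNA, had 12.0, 31.3 and 9.67 CPM with Apatinib and 13.4, 12.4 and 11.6 CPM in the control group. SNHG15 had 20.6, 43.7 and 15.97 CPM with Apatinib and 21.9, 20.1 and 17.7 CPM in the control group. SNHG12 had 8.49, 16.9 and 9.44 CPM with Apatinib and 12.8, 11.3 and 10.0 CPM in the control group. In each of the 3 genes Apatinib replicate 2 was above all other replicates, and Apatinib replicate 3 was below every control. The log2 fold changes were 0.51 (95% interval -0.26 to 1.27; FDR 0.353) for SNHG8, 0.43 (-0.22 to 1.08; FDR 0.358) for SNHG15 and 0.03 (-0.50 to 0.56; FDR 0.948) for SNHG12. Without Apatinib replicate 2 all 3 were below 0, at -0.19, -0.12 and -0.34. All 3 intervals reach past the fold limit, so a change of that size is neither shown nor excluded. SNHG8 was called at 0.52 without a low-count filter (FDR 0.0467, over a range of 0.0467 to 0.612 among its alternatives).

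SNHG1, the host of 7 annotated snoRNAs, had 58.2, 122 and 79.3 CPM with Apatinib and 104, 99.0 and 79.2 CPM in the control group. Its treated replicates lay on both sides of the controls. SNHG3, the host of the U17 (SNORA73) snoRNAs, had 30.3, 35.3 and 38.6 CPM with Apatinib and 40.8, 35.9 and 29.04 CPM in the control group, with full overlap. The log2 fold change was -0.12 (95% interval -0.61 to 0.37; FDR 0.760) for SNHG1 and -0.02 (-0.36 to 0.32; FDR 0.950) for SNHG3. SNHG1 was at -0.44 without Apatinib replicate 2 and at 0.10 without Apatinib replicate 1.

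**Figure D2:**
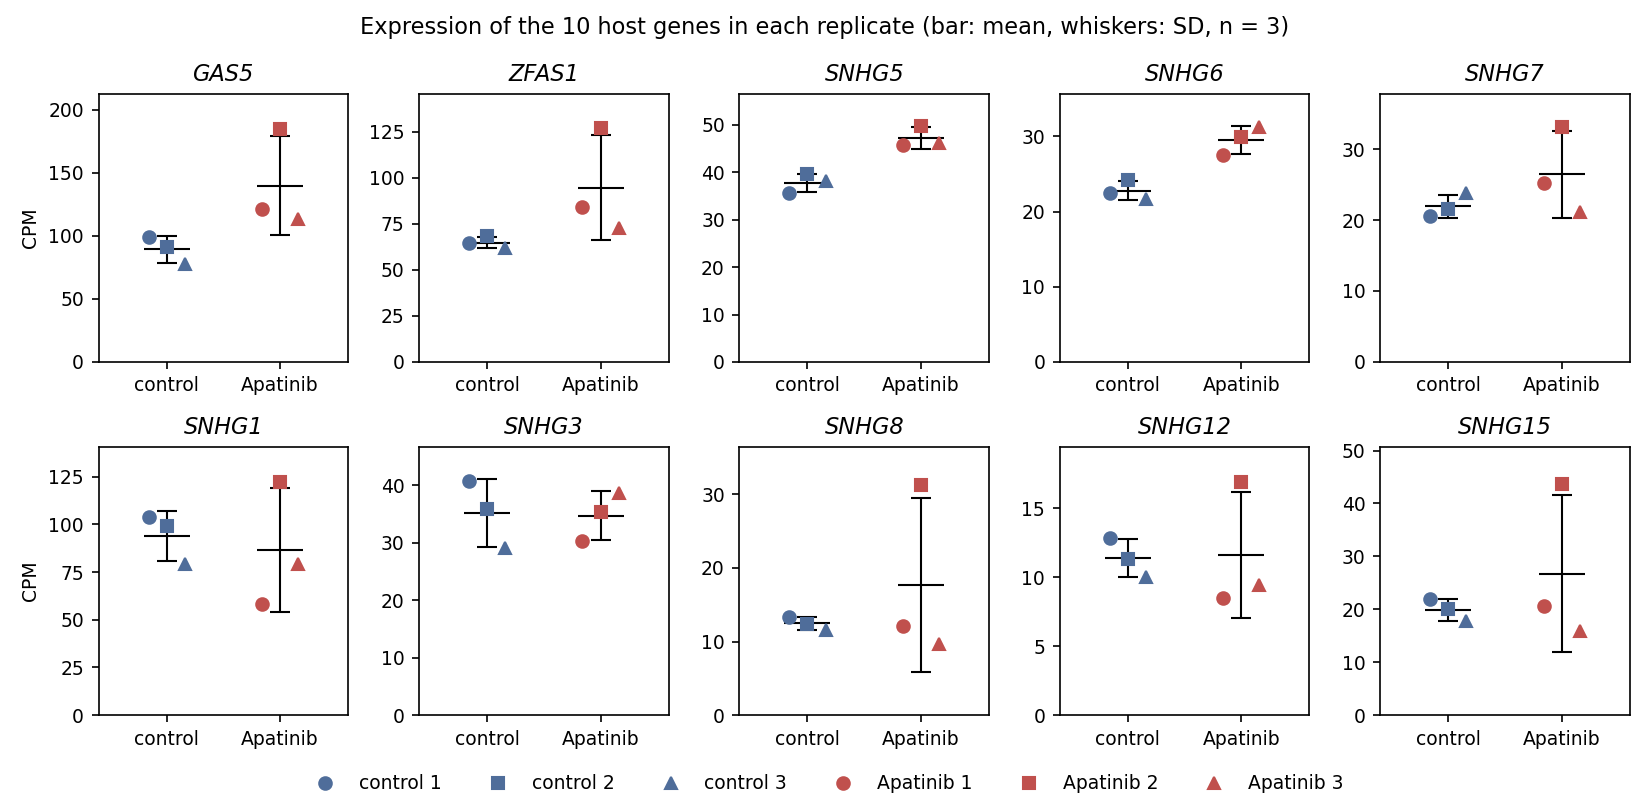
CPM of each host gene in the 3 control (blue) and 3 Apatinib (red) replicates, 1 panel per gene with its own axis from 0; bars are means and whiskers SD (n = 3). In the panels of GAS5, ZFAS1, SNHG5 and SNHG6 all red points lie above all blue ones, and in those of SNHG8, SNHG12 and SNHG15 only the red square, Apatinib replicate 2, does.

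The host genes differed in their spread. The coefficient of variation among the treated replicates was 67.1% for SNHG8, 55.5% for SNHG15, 39.6% for SNHG12 and 37.7% for SNHG1, against 4.79% for SNHG5 and 6.21% for SNHG6. Among the control replicates no host gene exceeded 16.7% (SNHG3). All 10 together took 0.0412%, 0.0691% and 0.0441% of the counts of the treated replicates, against 0.0442%, 0.0424% and 0.0367% in the controls, so that Apatinib replicate 2 stood above the rest. The share of GAS5 in the summed counts of the 10 was 25.99% to 27.96% in the Apatinib group and 21.01% to 22.8% in the control group, without overlap.

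**Figure D3:**
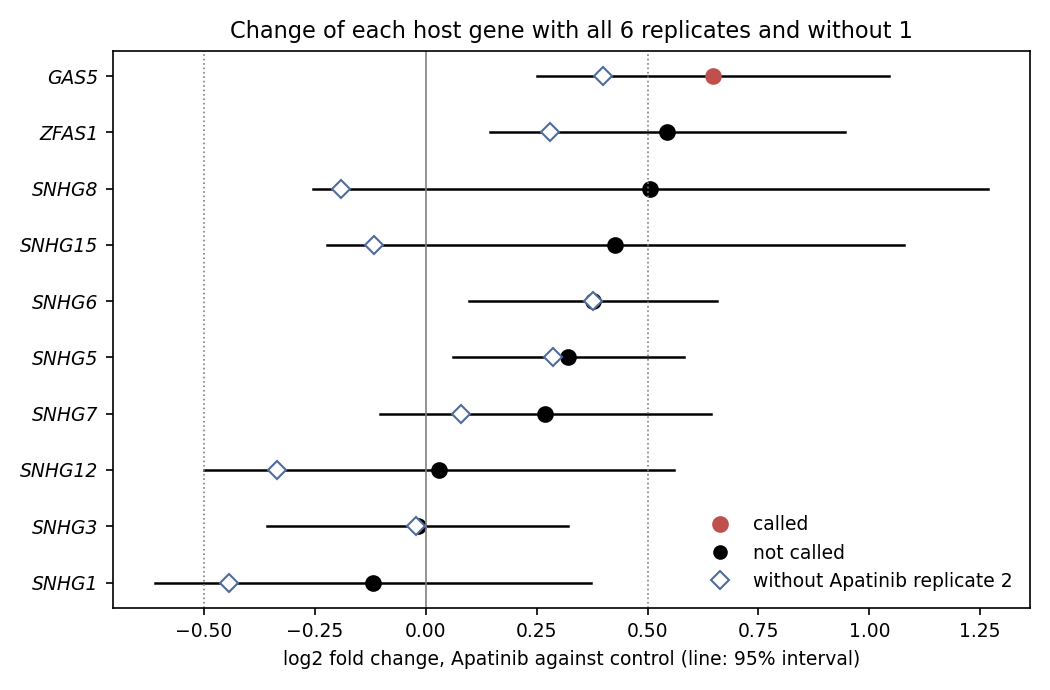
Log2 fold change of each host gene, Apatinib against control, with all 6 replicates (filled, line for the 95% interval; red where called) and without Apatinib replicate 2 (open diamonds); dotted lines mark the fold limit of 0.5 in size. GAS5 is the only one of the 10 called by edgeR, and the diamonds of SNHG8, SNHG15, SNHG12, SNHG3 and SNHG1 lie below 0.

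The height of Apatinib replicate 2 was followed across genes after its values had been seen, as a description. In log2 CPM, this replicate was above the mean of Apatinib replicates 1 and 3 for all 10 host genes, with a median difference of 0.68 beside 0.0055 over all genes. It was more than 1.5-fold above that mean in 6 host genes: SNHG8 (2.88-fold), SNHG15 (2.40-fold), SNHG12 (1.87-fold), SNHG1 (1.80-fold), ZFAS1 (1.62-fold) and GAS5 (1.57-fold). The same distance was passed by 8.79% of all genes. SNHG7 was at 1.43-fold, and SNHG5, SNHG3 and SNHG6 were near the other replicates at 1.08, 1.03 and 1.02-fold. Among 8 other noncoding hosts the median difference was -0.08, but 3 of them passed 1.5-fold: EPB41L4A-AS1 (2.85-fold), SNHG17 (2.21-fold) and SNHG11 (1.55-fold).

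Lists of genes that share features with these hosts were not higher in that replicate by their medians. The 95 TOP mRNAs tested had a median difference of -0.30 in Apatinib replicate 2, above 0 in 7 and past 1.5-fold in none. The 36 protein-coding snoRNA hosts had a median of -0.18, with 2 past 1.5-fold. A list of 8 amino acid and stress response genes was chosen after the values were seen (ATF4, DDIT3, ASNS, TRIB3, CHAC1, SESN2, PSAT1 and SLC7A11). It had a median of 1.35, with 7 of 8 past 1.5-fold, and by that choice these values are no test of the list. Of these 8 genes 4 were called higher with Apatinib by edgeR, beside 5.97% of all genes. Among these 4 were ASNS, asparagine synthetase, at 1.70 ± 0.30 (FDR 0.00847) and TRIB3, a pseudokinase induced by ATF4, at 1.54 ± 0.38 (FDR 0.0268). The call of ASNS was kept by DESeq2, limma and every fit without 1 replicate, while that of TRIB3 was lost with DESeq2 (FDR 0.0602), with limma on FPKM (FDR 0.0856 and 0.0873) and without control replicate 1 or 2, over a range of 0.0127 to 0.0873. DESeq2 called 3 of the 8. Without Apatinib replicate 2 the median log2 fold change of the 8 was 0.39 in place of 0.84, and that of the 10 host genes 0.03 in place of 0.35, with 5 of the 10 higher and 5 lower.

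**Figure D4:**
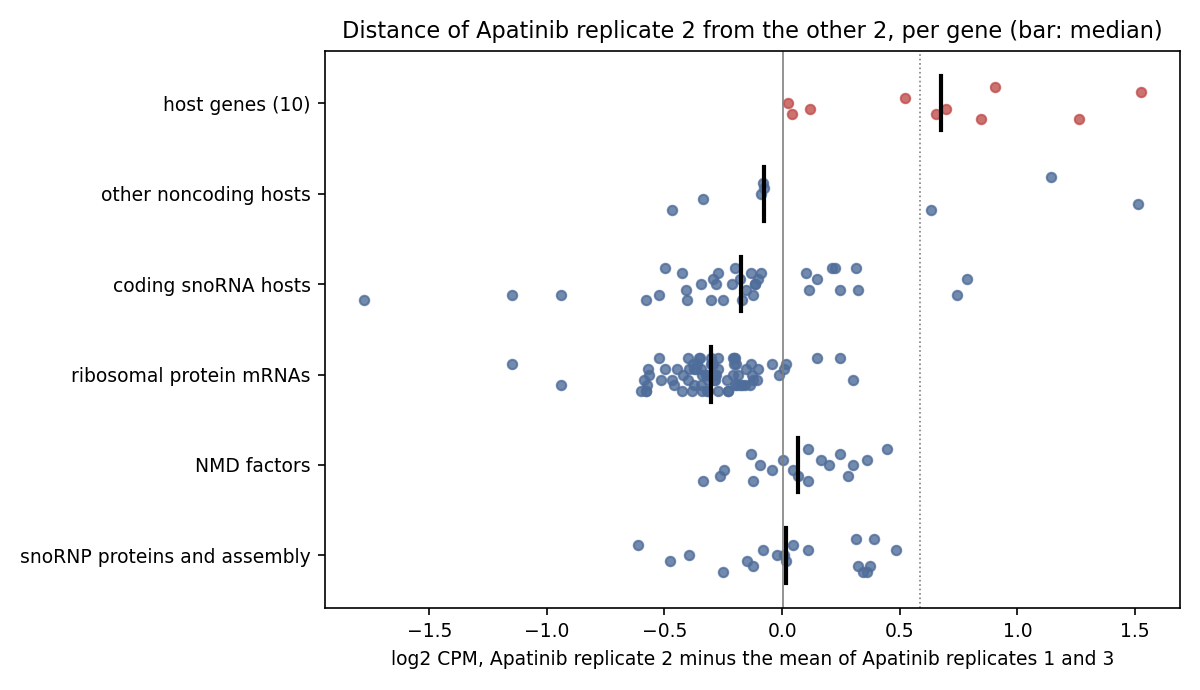
Log2 CPM of Apatinib replicate 2 minus the mean of Apatinib replicates 1 and 3, 1 point per gene, for the 10 host genes (red) and for other lists (blue); black bars are medians, and the dotted line marks 1.5-fold. All 10 host genes lie above 0, and 6 lie past the dotted line, whereas the ribosomal protein mRNAs lie mostly below 0.

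The genes whose pattern over the 6 replicates was most like the mean log2 CPM of the host genes were STC2, the hormone stanniocalcin 2 (Pearson r = 0.995), CEBPG, a C/EBP transcription factor that pairs with ATF4 (0.994), ZRANB1 (0.994), HOXA11 (0.993) and AC100802.3 (0.992). This likeness is across 6 points of which 1, Apatinib replicate 2, stands far from the rest. STC2 had 78.6, 254 and 67.7 CPM with Apatinib and 81.4, 71.6 and 50.9 CPM in the control group. CEBPG had 46.7, 123 and 48.1 CPM with Apatinib and 52.1, 47.8 and 34.8 CPM in the control group. Over the other 5 replicates r was 0.964 for STC2, 0.992 for CEBPG, 0.904 for ZRANB1, 0.857 for HOXA11 and 0.938 for AC100802.3. The genes had been picked for their r over all 6 replicates, so these values are not a separate check. None of these 5 genes was called between the groups.

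Other noncoding hosts are the nearest comparison. Of 20 listed, 9 were found by symbol and 8 were tested, and 0 were called by edgeR (1 at an unadjusted p under 0.05; DESeq2 called 0). Limma on FPKM called 1, SNHG14, whose FPKM is listed at 0 in all treated replicates and at 9.24 to 12.4 in the controls, although its counts were 1156 to 1497 and 1553 to 1723 and its log2 fold change on counts was -0.19 (FDR 0.353). SNHG14 was the only gene with at least 100 counts in every replicate, of 10860, whose FPKM was 0 throughout 1 group, and no host gene was at 0 FPKM in any replicate. EPB41L4A-AS1 had 21.6, 58.5 and 19.3 CPM with Apatinib and 22.3, 23.0 and 19.6 CPM in the control group, so that Apatinib replicate 2 stood alone as in SNHG8. SNHG10 had 4.65, 3.61 and 4.52 CPM with Apatinib and 7.04, 5.55 and 5.73 CPM in the control group, all treated values lying below all controls (log2 fold change -0.52 ± 0.20, FDR 0.105). SNHG11 was at 0.31 (FDR 0.276). The median log2 fold change of the 8 was 0.12.

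Among the 36 protein-coding hosts 0 were called by edgeR or DESeq2, with 7 at an unadjusted p under 0.05 in edgeR. The median log2 fold change was 0.07. NCL, the nucleolar protein nucleolin, was at -0.45 (FDR 0.0303), just under the fold limit, IPO7, a nuclear import receptor, at -0.43 (FDR 0.0678) and TPT1 at 0.33 (FDR 0.0734). The 77 ribosomal protein mRNAs had 68 fitted changes above 0 and a median of 0.18, and 0 were called by edgeR or DESeq2 (12 at an unadjusted p under 0.05 in edgeR; limma on FPKM called 1). The 3 with the smallest p were RPL30 at 0.37 (FDR 0.0544), RPL37 at 0.36 (FDR 0.0586) and RPLP1 at 0.36 (FDR 0.0859). Their changes were near the size of those of SNHG5 and SNHG6, and above the list median of 0.18. Of the 18 other TOP mRNAs 0 were called by edgeR or DESeq2 (3 at an unadjusted p under 0.05 in edgeR). Their fitted change was above 0 in 12 and below 0 in 6, with a median of 0.07. NPM1 was at -0.43 (FDR 0.0559) and HNRNPA1 at -0.49 (FDR 0.0586).

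Factors of NMD, the decay pathway that acts on many spliced host RNAs, were compared as a list. Of 19 tested, edgeR and DESeq2 each called 4 lower and 0 higher, while edgeR called 5.48% of all genes lower. The other 15 were not called. The fitted change was below 0 for 16 of the 19, beside 8095 of all 16290 genes, and the median was -0.22. UPF2, an adaptor of the central helicase UPF1, had 15.8, 19.0 and 19.6 CPM with Apatinib and 45.4, 44.0 and 27.6 CPM in the control group, a log2 fold change of -1.10 ± 0.19 (FDR 0.00776). UPF3B, which joins the exon junction complex to UPF2, was at -1.13 ± 0.24 (FDR 0.0147), and SMG1, the kinase of UPF1, at -0.61 ± 0.15 (FDR 0.0287). The fourth was MAGOHB, a subunit of the exon junction complex, at -0.56 (FDR 0.0474). In UPF2 and UPF3B control replicate 3 was lower than the other controls but above all treated replicates. Without control replicate 1 or 2 only the call of UPF2 was kept, and without Apatinib replicate 1 only those of UPF2 and UPF3B. The call of MAGOHB was also lost without Apatinib replicate 3 or control replicate 3, and that of SMG1 without Apatinib replicate 2, while limma on FPKM called 2 or 1 of the list, depending on the pseudocount.

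The snoRNP proteins bind the snoRNAs that the hosts release. NOP58, a core protein of box C/D particles, had 33.3, 50.3 and 46.1 CPM with Apatinib and 84.0, 90.1 and 55.7 CPM in the control group, without overlap, and was called lower at -0.82 ± 0.20 (FDR 0.0242). It was not called without Apatinib replicate 1, without control replicate 1 or 2, or by limma on FPKM. The other 3 tested box C/D proteins were not called, among them NOP56 at -0.20 (FDR 0.311) and the methyltransferase FBL at -0.23 (FDR 0.375). Of 4 box H/ACA proteins 0 were called by edgeR or DESeq2, and 0 were at an unadjusted p under 0.05, with the pseudouridine synthase DKC1 at -0.21 (FDR 0.274), NHP2 at -0.14 and NOP10 at 0.11. Among 11 assembly factors 0 were called by edgeR (2 at an unadjusted p under 0.05; DESeq2 called 1), although 10 had a fitted change below 0, with RPAP3 at -0.64 (FDR 0.0690), COIL at -0.36 (FDR 0.129) and ZNHIT6 at -0.35 (FDR 0.198).

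GAS5 RNA can bind the glucocorticoid receptor, so the receptor and its targets were read beside GAS5. NR3C1, the receptor gene, had 141, 227 and 176 CPM with Apatinib and 230, 235 and 189 CPM in the control group, with overlap (log2 fold change -0.27, FDR 0.313). Of 9 genes tested, 2 targets were called higher and 0 lower, with 5 fitted changes above 0 and 4 below, and a median log2 fold change of 0.10. TSC22D3, also known as GILZ, had 121, 202 and 87.1 CPM with Apatinib and 85.1, 68.0 and 77.4 CPM in the control group (0.83 ± 0.24, FDR 0.0463). CEBPD was at 0.79 ± 0.21 (FDR 0.0330), and the phosphatase gene DUSP1 at 0.58 (FDR 0.0510). Other targets, named after their values were seen, were on both sides of 0 and not called: FKBP5 at -0.27 (FDR 0.132), KLF9 at -0.17 (FDR 0.378), MT2A at -0.06 (FDR 0.842), SGK1 at 0.21 (FDR 0.222) and PER1 at 0.10 (FDR 0.653). DESeq2 kept both calls, and neither was kept by limma on FPKM, without Apatinib replicate 1 or 2, or without control replicate 1 or 2.

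Genes next to the hosts were compared because they lie beside the hosts. SNHG1 lies head to head with SLC3A2, the heavy chain of amino acid transporters that pair with SLC7 light chains. An annotated SLC3A2 start lies 224 bases from the SNHG1 start on the other strand, inside the SNHG1 promoter window (GRCh38.p14, chr11:62855836-62856135, minus strand), which is printed with the C and T run at the SNHG1 start in capitals.
SNHG1 promoter: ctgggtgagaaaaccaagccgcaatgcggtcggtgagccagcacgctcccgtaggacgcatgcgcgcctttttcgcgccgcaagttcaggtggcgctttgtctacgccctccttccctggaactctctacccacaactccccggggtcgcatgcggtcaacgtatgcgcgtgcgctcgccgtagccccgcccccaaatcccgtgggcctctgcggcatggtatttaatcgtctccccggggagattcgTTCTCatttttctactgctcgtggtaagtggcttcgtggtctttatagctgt
SLC3A2 had 302, 656 and 225 CPM with Apatinib and 205, 186 and 187 CPM in the control group. All treated replicates were above all controls, and replicate 2 was far above the rest. It was called by edgeR at 1.03 ± 0.30 (FDR 0.0453), whereas SNHG1 was at -0.12. Without Apatinib replicate 2 SLC3A2 was at 0.46 (FDR 0.0551), and the call was also lost without Apatinib replicate 1 or without control replicate 1 or 2. Neither DESeq2 (1.04, FDR 0.124) nor limma on FPKM (FDR 0.123 and 0.125) called it, and over these fits its FDR ran from 0.0166 to 0.141. The 2 genes thus had their highest value in the same replicate. Of the 7 neighbours edgeR called SLC3A2 alone, and DESeq2 called PRSS12 alone.

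The other 6 neighbours were not called by edgeR. RCC1, downstream of SNHG3 on the same strand, was at -0.38 (FDR 0.1004), with all treated values below all controls. PRSS12, beside SNHG8, was at 0.80 (FDR 0.0668), and CCM2, beside SNHG15, at 0.24 (FDR 0.318). ZNFX1, beside ZFAS1, was at 0.16 (FDR 0.454), ZBTB37, beside GAS5, at -0.19 (FDR 0.497), and TRNAU1AP, beside SNHG12, at 0.03 (FDR 0.926). PRSS12 was called by DESeq2 (0.81, FDR 0.0398), without Apatinib replicate 2 (1.02) and without control replicate 3 (1.06), and its FDR ran from 0.0209 to 0.247 over DESeq2, limma and the fits without 1 replicate.

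Exons of several hosts overlap those of other genes in GENCODE release 29, and whether the counting used strand is not given in the sources used here, so reads from opposite strands at these places cannot be told apart. On the opposite strand this touches SNHG6 with MCMDC2 (47 to 91 counts), SNHG7 with FAM69B (172 to 363), SNHG12 with TRNAU1AP (416 to 724), GAS5 with GAS5-AS1 (16 to 24), and ZFAS1 with ZNFX1 (2023 to 2817). Exons of SNHG3 overlap those of RCC1 (1044 to 2193 counts) on the same strand. Not scaled to depth, the counts of FAM69B were 363, 222 and 298 in the treated replicates, against 174, 172 and 259 in the controls.

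Few counts of the snoRNAs themselves could be read. GENCODE release 29 places 25 snoRNA genes, of 69 to 206 bases, inside 9 of these hosts, of which 6 were found in the table by identifier and 5 had any count. The others may stand there under other identifiers and were not analysed here. SNORA73B in SNHG3 had the most, with 13, 25 and 15 counts in Apatinib replicates and 18, 12 and 10 in controls. The 3 snoRNAs of ZFAS1 had 0 to 10 counts each. SNORD99 in SNHG12 was at 0 in all treated replicates and at 4, 2 and 3 counts in the controls, while SNORD87 in SNHG6 was at 0 throughout. The sums over these snoRNAs were 24, 28 and 32 in the Apatinib group and 41, 43 and 19 in the control group, with overlap. No change of these snoRNAs is drawn from counts this low. The snoRNAs of GAS5 were not analysed here.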

How the data were processed

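RNA of SW872 cells was sequenced on the Illumina platform from 3 Apatinib and 3 control replicates. The authors deposited raw counts per gene for 57773 genes, with no normalization, and FPKM values per replicate, which are scaled to transcript length and mapped fragments. The submitters' processing notes name CASAVA, STAR 2.7.1a and hg19. The counting program, its annotation and its use of strand are not given in the sources used here. In the FPKM files 1 column headed with the label of another sample was not used.

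The analysis of counts used edgeR 4.0.16 in R 4.3.3 (filterByExpr, 16290 genes; TMM factors 0.952 to 1.03; quasi-likelihood F test, no covariate). Dispersion was estimated over all genes tested, with a common biological coefficient of variation of 0.149. CPM were scaled by the TMM factors, with a prior count of 2 before taking log2. Counting error is part of this model, which was checked on simulated counts. The study's criteria for a DEG were kept. Groups were taken from the sample titles. The sources do not say whether same-numbered replicates of the groups were paired (correlations of same-numbered deviations -0.259, 0.0808 and -0.220). The main fit took them as unpaired, and the replicate block was kept as an alternative. Where cultures are not known to be separate, p values measure the spread between these samples, which may be technical.

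The 10 host genes, the gene lists and the rule for named genes were chosen with earlier results of these data known. The rule named all 10 host genes, the neighbouring coding genes, the snoRNAs with counts inside the hosts, the 3 tested genes with the smallest p of every other list, and the 5 other genes with the highest correlation with the mean of the hosts. Genes outside this rule (SNHG14, SNHG17, NR3C1 and 5 of its targets, MAGOHB, FAM69B and the overlapping genes, marker genes beyond those with the smallest p, and the stress genes) were named after their values were seen. No list was tested.

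The alternatives were DESeq2 1.42.0, RLE size factors, no filter on low counts except a total of at least 1, a minimum of 10 counts per sample, the replicate block, controls 1 and 2 summed as 1 sample, limma 3.58.1 on log2(FPKM + 1) or log2(FPKM + 0.1) where the mean FPKM exceeded 0.5, no fold limit, and leaving out each of the 6 replicates. Start windows came from RefSeq (GRCh38.p14) and were used for sequence only, since the counts were made on hg19. The snoRNAs and overlaps came from GENCODE 29, matched by identifier.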

Additional observations from a re-analysis of the deposited data

How the results depend on the processing

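Each of the 10 host genes was recomputed under 15 alternatives. Of these 150 values, 127 kept their direction and their side of the limits, 8 lost a call, 4 gained one and 11 changed sign, and the cause was not tested. The number of host genes called was 1 and became 2 with DESeq2, 3 without a low-count filter, and 0 with controls 1 and 2 summed in edgeR or with limma on log2(FPKM + 1) or log2(FPKM + 0.1), where 3 host genes in each had an unadjusted p under 0.05. It ranged from 0 to 2 when 1 replicate was left out, with 2 to 7 host genes at an unadjusted p under 0.05. All genes called numbered 1866 and became 292 with controls 1 and 2 summed, 796 and 810 with limma at the 2 pseudocounts, and 275 (without control replicate 1) to 2594 (without control replicate 3) when 1 replicate was left out. They were 2046 with DESeq2 and 2559 without a low-count filter, 300 without control replicate 2 and 795 without Apatinib replicate 1. Summing the controls or leaving 1 out leaves fewer samples.

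The 8 lost calls were all of GAS5, under the summed controls (0.69, FDR 0.114), both limma fits (0.75 and 0.76) and 5 of the 6 fits without 1 replicate (range over the 6, 0.40 to 0.78). The gained calls were ZFAS1 with DESeq2 (0.55), without a low-count filter (0.56) and without Apatinib replicate 3 (0.71), and SNHG8 without a low-count filter (0.52). Signs changed in genes whose intervals span 0. SNHG3 was at 0.040 with the summed controls and at 0.0036 and 0.0044 with limma, and SNHG12 at -0.027 with the replicate block. When 1 replicate was left out, SNHG3 ranged from -0.14 to 0.093, SNHG12 from -0.34 to 0.21, SNHG1 from -0.44 to 0.10, SNHG8 from -0.19 to 0.80 and SNHG15 from -0.12 to 0.70. Without control replicate 3 SNHG12 was at -0.05. With the replicate block 1 host gene and 2215 genes were called, and no host gene gained or lost a call. What the replicate numbers mark is not given. The correlations of same-numbered replicates were near or below 0, which cannot show whether same-numbered samples shared a culture.

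The lowest host gene, SNHG12, had 146 counts in a replicate, and the coefficient of variation between treated replicates reached 67.1% (SNHG8).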
